A study of Mus musculus with 57 samples.

Results

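Corticospinal neurons (CSN) of Sod1G86R mice were compared with those of wild-type mice at 60 days, across all genes with a measurable level. The comparison used 8 of the 57 libraries of the series, 4 of each genotype, and they were chosen by their labelled age, genotype and cell type and not by any measured value. For contrast, 21 CSN libraries of 30, 90 and 105 days were used (3, 4 and 2 Sod1G86R, and 4 wild type at each age). A further 5 libraries of 60 days came from cells that the labels call control cells (3 Sod1G86R and 2 wild type). The tissue is given as brain. The ages stand in the labels as plain numbers and were read as days. Strain, sex, the promoter that drives the transgene, the way the neurons were isolated and whether a library came from 1 or several animals are not given in the sources used here. Nothing in the labels says that the replicates came from separate animals, so p-values measure the spread between these libraries, which may in part be technical.

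CSN are the large projection neurons of layer 5 of the motor cortex whose axons run to the spinal cord, where they drive voluntary movement. They are lost in amyotrophic lateral sclerosis (ALS), together with the motor neurons of brain stem and spinal cord that carry the command to muscle. Mutant forms of superoxide dismutase 1 cause inherited ALS through a toxic gain of function, and mice that carry such a form develop a progressive motor disease in adult life.

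The label was first checked against markers. The transcription factors Bcl11b and Fezf2, which specify CSN, and the thyroid hormone binding protein Crym ranged from 7050 to 11231, from 5921 to 10407 and from 7194 to 11828 normalised reads in the 8 libraries. In the 5 control-cell libraries of the same age none of these 3 genes exceeded 712.4. Of 24 CSN and deep-layer markers tested, 21 were at or above 34.6 normalised reads in all 8 libraries, where 34.6 is the pseudocount added before taking logs, and 18 were higher on average than in control cells. Markers of other cells were also present in the CSN libraries, unevenly between lists. At or above 34.6 in all 8 libraries were 13 of 15 microglia, 11 of 12 oligodendrocyte and 7 of 12 astrocyte markers. The same held for 9 of 15 upper-layer, 6 of 10 corticothalamic and layer 6 and 6 of 13 endothelial and mural markers. Only 3 of 11 inhibitory neuron and 1 of 8 oligodendrocyte precursor markers reached it. Of the 96 markers tested from these 8 lists, 0 were at 0 in all 8 libraries, but testing itself required reads. Depth was 26.0 to 36.9 M reads per library, with no order between genotypes. Replicates correlated at r of 0.938 to 0.978 across genes. The share of reads from the mitochondrial genome was 3.26 to 10.6% in Sod1G86R and 8.59 to 18.1% in wild type. The lowest share was in Sod1G86R replicate 1 and the highest in wild-type replicate 3. Glial markers (astrocytes, oligodendrocytes and microglia) had a mean log2 level of 8.12 to 9.61 in Sod1G86R and 8.93 to 10.8 in wild type, highest in wild-type replicate 7.

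Few genes separated the genotypes at 60 days. Of 19093 genes tested, 6 passed (0.0314%), which means a Benjamini-Hochberg adjusted p under 0.05 with limma on log2(value + 34.6). Both genes that rose (0.0105%) were Sod1 itself and Gm8566, a pseudogene copy of it. All 4 that fell (0.021%) lay on 1 part of chromosome 3: Fnbp1l, Ndst3, Abcd3 and the predicted gene Gm26871. At an unadjusted p under 0.05 there were 1501 genes (7.86%), 910 higher (4.77%) and 591 lower (3.1%). On recovered whole reads, edgeR passed 5 genes (0.0262%), all among the 6, with Gm26871 missing. DESeq2 passed 14 of 19076 (0.0734%), which held all 6.

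Sod1 encodes the cytosolic copper and zinc enzyme that turns superoxide into hydrogen peroxide. In Sod1G86R CSN it stood at 143780, 106770, 107770 and 121620 normalised reads in replicates 1, 3, 5 and 7. In wild-type CSN it stood at 3037, 2488, 1867 and 4553 in replicates 1, 2, 3 and 7. Every Sod1G86R library lay far above every wild-type library, in the direction of the genotype labels. The means were 119990 ± 17249 and 2986 ± 1149 (SD, n = 4 each), a 40.2-fold difference with a log2 fold change of 5.38 (SE 0.248, limma adjusted p = 2.91e-15). A gene-level value cannot tell transcripts of the transgene from those of the animals' own gene.

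Over the whole coding sequence, 452 of 462 bases of the processed pseudogene were identical to Sod1 (97.8%), so short reads can match both places. Gm8566 stood at 498, 697, 274 and 409 in Sod1G86R and at 17.9, 15.5, 8.55 and 26.2 in wild type. The groups did not overlap, and the log2 fold change was 3.23 (SE 0.303, limma adjusted p = 1.33e-07). Gm8566 lies outside the rule by which genes were named and was named after its values were seen, and its value is uncertain because of the shared sequence. A further 650 bases of Sod1 overlap Scaf4, which runs on the opposite strand and is not resolved by the library kit. Mean Scaf4 levels were 470.8 in Sod1G86R and 545.1 in wild-type CSN. The part of this overlap in the Sod1 value was not tested.

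**Figure D1:**
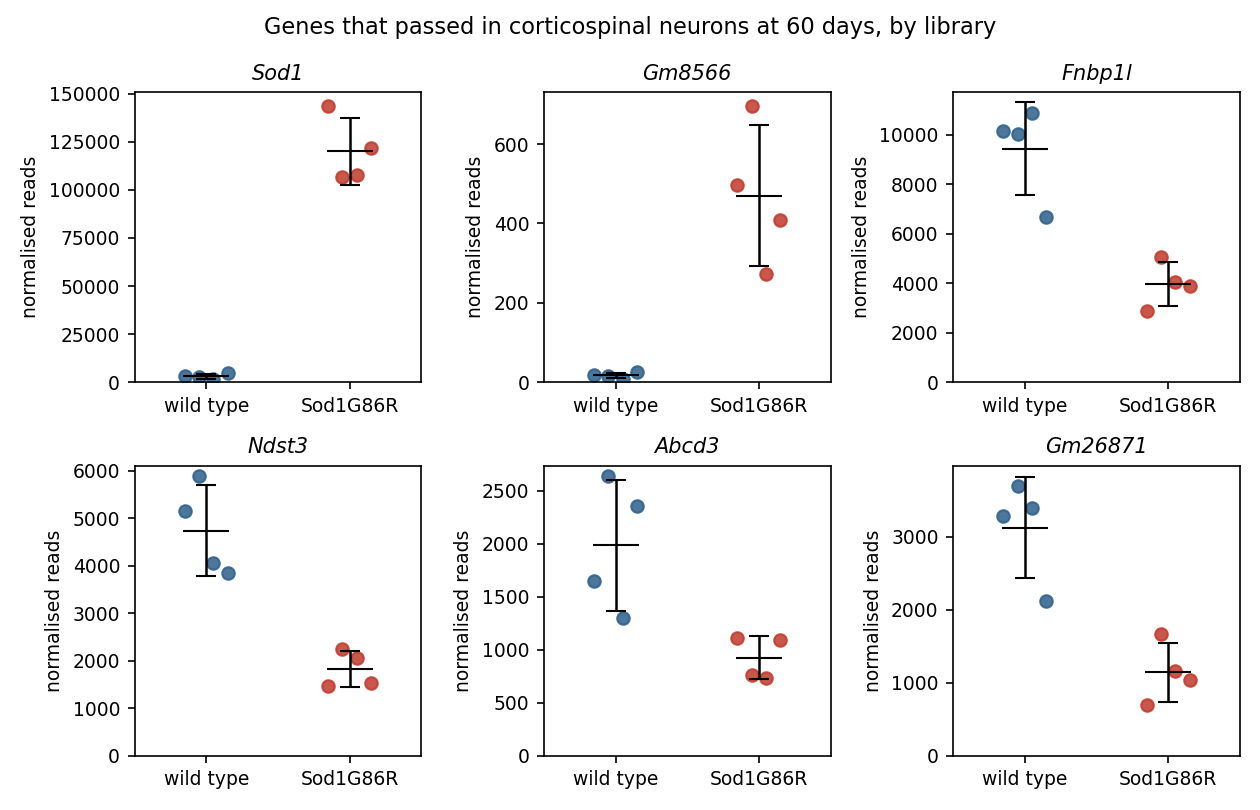
Normalised reads (y axis, from 0) of the 6 genes that passed, for each of the 4 wild-type and 4 Sod1G86R CSN libraries of 60 days (points), with the mean and SD (bars). Sod1 and Gm8566 are higher and the other 4 genes lower in every Sod1G86R library than in any wild-type library.

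Among the falls, Fnbp1l, whose product links membrane curvature to actin assembly, stood at 2862.5, 5063, 4046 and 3900 in Sod1G86R replicates 1, 3, 5 and 7 and at 10161, 10030, 10862 and 6680 in wild-type replicates 1, 2, 3 and 7. The groups did not overlap, with wild-type replicate 7 nearest to the Sod1G86R libraries. The log2 fold change was -1.25 (SE 0.185, limma adjusted p = 0.00135), which leaves a level of 0.421 times that of wild type. Ndst3, an enzyme that removes acetyl groups and adds sulfate in heparan sulfate synthesis, stood at 1473, 2243, 2050 and 1542 against 5152, 5894, 4055 and 3855. Its groups did not overlap either (log2 fold change -1.36, SE 0.219, limma adjusted p = 0.00422).

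Abcd3, which encodes a transporter of the peroxisome membrane, stood at 1108, 762, 733 and 1094 in Sod1G86R and at 1649, 2642, 1298 and 2354 in wild type. The highest Sod1G86R and the lowest wild-type library were close but did not overlap. The log2 fold change was -1.05 (SE 0.198, limma adjusted p = 0.037), and Abcd3 lost its call without any 1 of 5 libraries (wild-type replicates 1, 2 and 7, Sod1G86R replicates 3 and 5; adjusted p up to 0.296). Gm26871, a predicted gene named after its values were seen, stood at 697, 1673, 1154 and 1041 against 3288, 3700, 3397 and 2116.5 (log2 fold change -1.46, limma adjusted p = 0.037). It lost its call without any 1 of 6 libraries (adjusted p up to 0.296). Ndst3 lost its call without wild-type replicate 2 (adjusted p = 0.0552), which left 3 passing genes of the 6. With the mitochondrial share as a covariate Ndst3 (-1.26, limma adjusted p = 0.066) and Gm26871 (-0.99, limma adjusted p = 0.577) missed the threshold. With the glial marker level as a covariate Abcd3 did (-0.97, limma adjusted p = 0.157). Fnbp1l kept its call with any 1 library left out, but when only the 8 libraries were fitted, with no help from the other ages in estimating the spread, all 4 falls missed the threshold (Fnbp1l adjusted p = 0.162).

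Fnbp1l, Ndst3 and Abcd3 sit in a stretch of chromosome 3, with Gm26871 before its start. The stretch was already known from an analysis over all 4 ages, which used these 8 libraries too. Its limits were set by 7 genes of that analysis, Rwdd3, Cnn3, Fnbp1l, Arhgap29, Ugt8a, Ndst3 and Sec24d, and run from 121155398 to 125938619 on GRCm38 (4.78 Mb). Because the choice rested on these values, what follows describes the stretch and tests nothing about it as a set. It held 20 genes with a mean of at least 346 normalised reads, 10 times the pseudocount, in either genotype. All 20 lay below 0, with a median log2 fold change of -1.05 against 0.07 for the 10103 genes of that level, and the Sod1G86R level was a median of 0.463 times the wild-type level (interquartile range 0.38 to 0.573). Passing genes were 3 of the 20, unadjusted p under 0.05 was reached by 16, all lower, and the genotypes did not overlap in 12, all lower (1.99% of all genes tested were lower without overlap). The 13 genes that played no part in setting the limits had a median of -0.83, and all 13 lay below 0. With genes below the level included, 36 of 37 lay below 0 (median -0.69).

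Library by library, the median gene of the stretch lay -0.75, -1.04, -1.18 and -0.79 from the wild-type mean in Sod1G86R replicates 1, 3, 5 and 7. In wild-type replicates 1, 2, 3 and 7 it lay 0.07, 0.13, -0.24 and 0.18 from it. The 4 Sod1G86R libraries were thus all lower than the 4 wild-type libraries, though the library with the highest mitochondrial share, wild-type replicate 3, came nearest. The stretch median was -1.06 with quantile normalisation and -1.10 when the mitochondrial share was a covariate. It was -0.87 with the glial marker level as a covariate, and -1.14 to -0.89 with 1 library left out.

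The genes of the stretch do unrelated work. Prss12 encodes a secreted protease of neurons and synapses. It stood at 944, 963, 792 and 599 in Sod1G86R and at 1649, 1351, 1294 and 1629 in wild type, without overlap. It missed the limma threshold (log2 fold change -0.83, SE 0.176, adjusted p = 0.134) and passed DESeq2 (adjusted p = 0.0066). Gclm, the modifier subunit of the enzyme that starts glutathione synthesis, stood at 976, 792, 816 and 930 against 1453, 1224, 1329 and 1784. The groups did not overlap, and the log2 fold change was -0.69 (SE 0.179, limma adjusted p = 0.484). Ugt8a, which makes galactosylceramide, the main glycolipid of myelin, stood at 137, 465, 246 and 199 against 851, 1323, 987 and 1834. It had the lowest fold change of the stretch (-2.17, SE 0.533, limma adjusted p = 0.484), again without overlap.

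Further genes of the stretch with p under 0.05 before adjustment and no overlap were the coat protein gene Sec24d (-1.11), Arhgap29 (-1.30), Tmem56 (-0.86), Usp53 (-0.83), Rwdd3 (-1.06) and 1810037I17Rik (-1.11). The RNA methyltransferase subunit Mettl14 stood at 281, 176, 309 and 263 against 434, 481, 276 and 427 (log2 fold change -0.59, SE 0.249), with overlap at wild-type replicate 3. Cnn3, which encodes an actin-binding calponin (-1.68, SE 0.635), and the coagulation factor receptor F3 (-1.88, SE 1.15) had wide errors. Alg14 (-0.65), Dnttip2 (-0.68), Bcar3 (-1.13) and Tram1l1 (-0.34) overlapped between genotypes. The member nearest to 0 was Gm17494, at 1321 ± 274 and 1331 ± 139 (log2 fold change -0.03). Its gene span, introns included, shares 14775 bases with Gclm and 10884 with Dnttip2 on the other strand. Where exons overlap, strand cannot tell its reads from theirs, but the overlap of exons was not measured.

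The edges were uneven. In the 5 Mb before the stretch lie Gm26871, its neighbour Gm37928 (log2 fold change -1.06, SE 0.381, with overlap) and the splicing regulator Ptbp2. Ptbp2 stood at 1528, 1615, 1584 and 1710.5 in Sod1G86R and at 2804, 2290, 2370 and 3481 in wild type, without overlap. Its log2 fold change was -0.73 (SE 0.168, limma adjusted p = 0.251), and it passed DESeq2 (adjusted p = 0.0107) and limma after quantile normalisation (adjusted p = 0.00291). Snx7, the sorting nexin gene before Gm26871, was at -0.05 (SE 0.267), and Ank2, the ankyrin gene after the stretch, at -0.04 (SE 0.152). Fam241a, in the 5 Mb after, was lower without overlap (-0.72, SE 0.218, limma adjusted p = 0.541). Rtca, in the 5 Mb before, was at 0.71 (SE 0.293) with overlap. Gm37928, Ptbp2, Snx7, Ank2, Fam241a and Rtca were named here after their values were seen. The medians of the 5 Mb before and after the stretch were -0.15 (13 genes) and -0.10 (16 genes). In a running median of 15 neighbouring genes over the genome (9786 windows), the 10 lowest windows were all centred in the stretch (lowest -1.11). The highest window anywhere was 0.41, and the lowest off chromosome 3 was -1.04. Neighbouring windows share most of their genes, so these 10 are not separate observations. The stretch was chosen with these values known, so the windows describe it and test nothing.

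**Figure D2:**
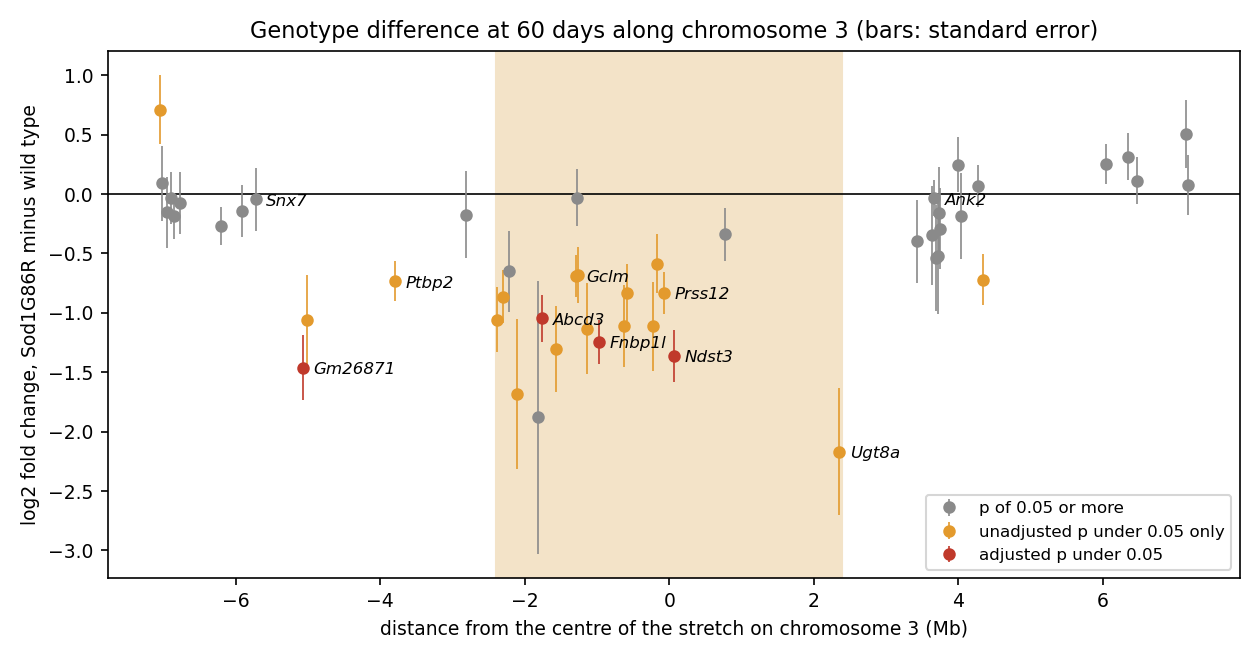
Log2 fold change of Sod1G86R against wild-type CSN at 60 days (y axis, bars are standard errors) of genes with a mean of at least 346 normalised reads, by distance from the centre of the chromosome 3 stretch in Mb (x axis). The shaded span is the stretch of 4.78 Mb, in which all 20 genes lie below 0, and the genes that passed are Abcd3, Fnbp1l and Ndst3 inside it and Gm26871 before it.

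At the other ages the 20 genes had medians of -0.89, -0.77 and -1.03 at 30, 90 and 105 days, and all 20 lay below 0 at each; those ages belong to the analysis that set the limits. Fnbp1l was at -1.55, -1.25, -1.19 and -1.24 and Ndst3 at -1.20, -1.36, -1.03 and -1.65 at 30, 60, 90 and 105 days. In control cells of 60 days the median was -1.32, with 17 of 20 below 0. Of these 20, 8 passed as lower and 1, Gm17494, passed in the opposite direction. Of all genes, 17.2% passed in that comparison, 7.08% higher and 10.1% lower. The control-cell median over the 10103 genes at the level used for these 20 was -0.26, with 6332 below 0. With stretch genes below that level included, 21 of 37 lay below 0 in control cells (median -0.19). In CSN of 60 days 36 of the same 37 did (median -0.69).

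The cell types differed in single genes of the stretch. Ndst3 stood at 1182, 1056 and 617 in Sod1G86R control cells and at 751 and 702 in wild-type ones, which overlap. The difference of its genotype effect, CSN minus control cells, was -1.68 (SE 0.457, limma adjusted p = 0.0261), but it missed the threshold without Sod1G86R CSN replicate 1 (0.0584) and when the mitochondrial share was a covariate (0.402). Tram1l1 went the other way, at 2.61 (SE 0.65, limma adjusted p = 0.0179; 0.48 with the mitochondrial covariate), with means of 322.4 and 2708 in Sod1G86R and wild-type control cells and 1191 and 1479 in CSN. Ndst3 and Tram1l1 were the 2 genes of the 20 to pass that test, and they were named for it after their values were seen.

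**Figure D3:**
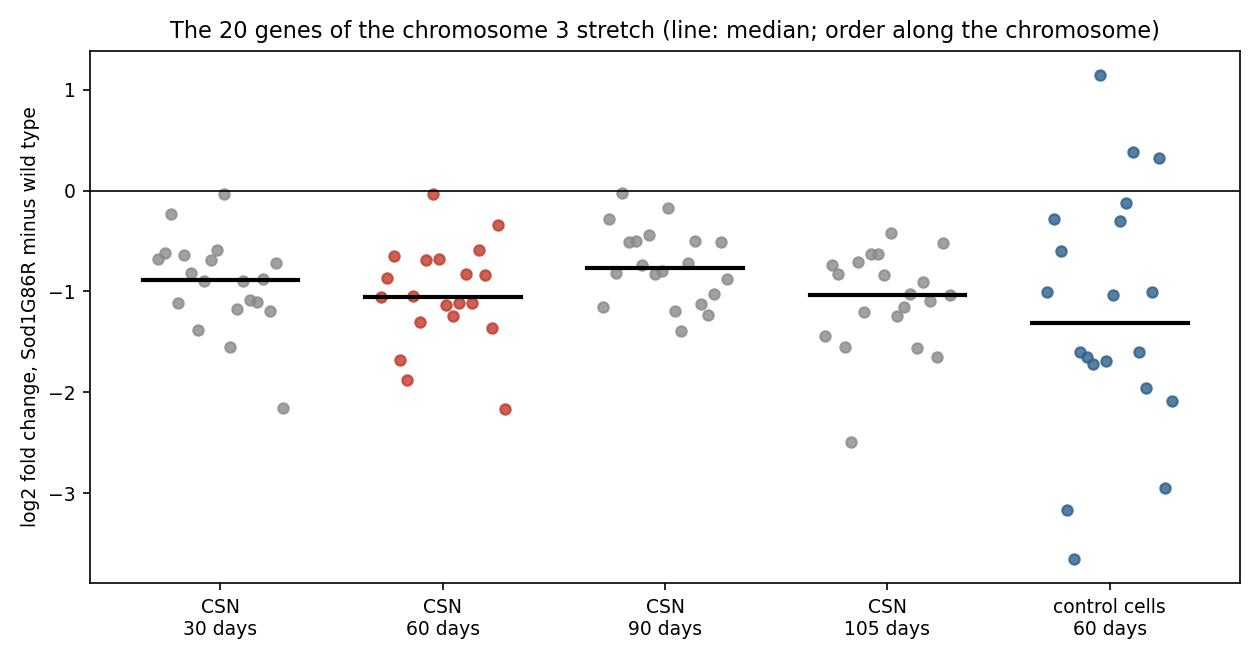
Log2 fold change of Sod1G86R against wild type (y axis) of the 20 genes of the chromosome 3 stretch, 1 point per gene, in CSN at 4 ages and in control cells at 60 days (x axis), with the median as a line. In CSN all points lie below 0 at every age, and in control cells 17 of 20 do.

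Away from chromosome 3, Sod1 and its pseudogene no gene passed limma. The 3 smallest p-values among higher genes belonged to Samm50, Diaph3 and Sult2b1. Samm50, part of the machinery that inserts proteins into the outer mitochondrial membrane, stood at 2828.5, 1744, 2109.5 and 2360 in Sod1G86R and at 888, 1291, 1032 and 1449 in wild type. The groups did not overlap, and the log2 fold change was 0.94 (SE 0.209, limma adjusted p = 0.199). It passed DESeq2 (adjusted p = 0.0209) and limma with array weights (adjusted p = 0.0279). Diaph3, an actin-nucleating formin, stood at 851, 1299, 1912 and 1264 against 429, 620, 597 and 947. It overlapped at wild-type replicate 7 and did not pass (log2 fold change 0.997, SE 0.262, adjusted p = 0.498). Sult2b1, a sterol sulfotransferase, stood at 1069 ± 299 and 566 ± 152 (log2 fold change 0.87, SE 0.23, adjusted p = 0.507), also with overlap.

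DESeq2 passed 8 genes that limma did not, named here because it called them: Samm50 and Gm12407 higher, and Prss12, Ptbp2, Frmpd3, Zkscan17, Gm38235 and Gm26692 lower. Frmpd3, a gene of the X chromosome, stood at 489 ± 57.2 in Sod1G86R and 978 ± 74.5 in wild type, and Zkscan17, a zinc finger gene, at 133 ± 30.1 and 305 ± 62.4, both without overlap. Gm12407 was at 1.34 normalised reads on average in Sod1G86R and 0 in wild type, a level at which no fold is given.

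Creb3, an ER-bound transcription factor activated by proteolysis that was to be given whatever its result, stood at 5489, 2309, 3618 and 3621 in Sod1G86R and at 2486, 2232, 2613 and 2839 in wild type. Sod1G86R replicate 3 lay among the wild-type libraries and the other 3 lay above them. The gene did not pass (log2 fold change 0.50, SE 0.239, adjusted p = 0.628). Of 8 genes of the Creb3 family list tested, 2 lay above 0 (median -0.14), among the others Crebzf at -0.24 (SE 0.158), lower without overlap.

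The remaining results are for gene lists, of which 49 were examined with 1225 memberships tested. In limma 0 members passed in any list, and in edgeR 0. In DESeq2 1 did, Ptbp2. The unadjusted counts per list are therefore given beside the share over all genes, 4.77% higher and 3.1% lower. Among the 10103 genes of at least 346, 803 were higher and 237 lower at an unadjusted p under 0.05. Above 0 lay 48.3% of all genes tested and 60.3% of those of at least 346. The reference for a median is -0.01 over all genes tested and 0.07 over the genes of at least 346.

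Protein quality control came first. The proteasome degrades ubiquitin-tagged proteins, and 38 of its 39 subunits lay above 0, with a median of 0.42 and with 16 at an unadjusted p under 0.05, all higher. The catalytic subunit Psmb5 stood at 4085, 2182.5, 2191 and 2868 in Sod1G86R and at 1988, 1429, 1154 and 2162 in wild type, touching but not overlapping (log2 fold change 0.73, SE 0.231). The ATPase subunits Psmc3 and Psmc2 were at 0.53 (SE 0.155) and 0.52 (SE 0.18), and the lid subunit Psmd8 was at 0.74 (SE 0.247). None passed (adjusted p = 0.541 for each of the 4). The mean log2 level of the list lay 0.79, 0.10, 0.22 and 0.61 from the wild-type mean in Sod1G86R replicates 1, 3, 5 and 7, and 0.07, -0.08, -0.37 and 0.39 in wild-type replicates 1, 2, 3 and 7, so the groups overlapped.

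The level of the list was highest in the library with the lowest mitochondrial share, Sod1G86R replicate 1, and lowest in the one with the highest share, wild-type replicate 3. With that share as a covariate the proteasome median was 0.11, and it was 0.33 with quantile normalisation. The part of the mitochondrial share in this result was not tested beyond that covariate. For several lists below the median with this covariate stands after the main one.

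Some list medians had no stable sign. Of the 25 described lists whose median was at least 0.1 in size, 4 turned sign with the mitochondrial covariate: ER-to-Golgi genes, antioxidant genes, the mitochondrial genome and inhibitory neuron markers (0.11). With quantile normalisation 1 did, presynaptic genes. With 1 library left out 2 did: inhibitory neuron markers (0.098 without wild-type replicate 7) and the interferon list (0.01 without wild-type replicate 2). Of the 13 lists with a smaller median, 8 turned sign with 1 library left out and 4 with the mitochondrial covariate, among the latter the upper-layer markers (0.14).

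Cytosolic heat shock proteins refold or hold damaged proteins. Of 34 tested, 27 lay above 0 (median 0.35, and 0.17 with the covariate), and 14 had an unadjusted p under 0.05, all higher. Dnajb1, a co-chaperone of Hsp70, stood at 3162, 3962, 3708 and 2985 against 2283, 2033, 2362 and 2542, without overlap (log2 fold change 0.57, SE 0.179, adjusted p = 0.541). Cct5, a subunit of the chaperonin that folds actin and tubulin, was at 0.76 (SE 0.254), with Sod1G86R replicate 3 just within the wild-type range. The ubiquitin list had a median of 0.20 (0.02 with the covariate), with 2 of 30 at an unadjusted p under 0.05. The ubiquitin median was 0.07 without wild-type replicate 3, 0.08 without Sod1G86R replicate 1, 0.12 without wild-type replicate 2 and 0.35 without wild-type replicate 7. Among the members Uchl1, the abundant neuronal ubiquitin hydrolase, was at 0.85 (SE 0.269).

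Of 40 lysosome genes, 32 lay above 0 (median 0.41, and 0.03 with the covariate) and 14 had an unadjusted p under 0.05, all higher. The cathepsin Ctsz stood at 3571, 1741, 2463 and 1759 against 1511, 1488, 1156 and 1511, without overlap (log2 fold change 0.68, SE 0.215). Atp6v0c, of the proton channel that acidifies the lysosome, was at 0.96 (SE 0.359). Autophagy genes had a median of 0.11 (0.05 with the covariate) and 4 of 26 with an unadjusted p under 0.05, all higher. The autophagy median ran from 0.06 without Sod1G86R replicate 1 to 0.18 without Sod1G86R replicate 5. Of its members, Gabarapl1, of the family that tags autophagosome membranes, was at 0.44 (SE 0.196) without overlap and Map1lc3a at 0.72 (SE 0.275).

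In the ER, 22 of 26 genes of the unfolded protein response lay above 0 (median 0.33, and 0.17 with the covariate), 7 with an unadjusted p under 0.05, all higher. The chaperone Hspa5, the main Hsp70 chaperone of the ER lumen, stood at 14507, 10184, 16624 and 9950 in Sod1G86R and at 5943, 6303, 7548 and 8859 in wild type. All 4 Sod1G86R libraries were above all 4 wild-type libraries, but the spread kept it from passing (log2 fold change 0.82, SE 0.26, adjusted p = 0.541). Of other ER folding genes, Sdf2l1 was at 0.87 (SE 0.345, no overlap), Dnajb11 at 0.52 (SE 0.162) and Pdia3 at 0.53 (SE 0.221). The integrated stress response, the translation brake that acts through Atf4, had a median of -0.04, with 1 of 25 at an unadjusted p under 0.05, Asns (0.69, SE 0.321). ER-to-Golgi genes had a median of 0.18 (-0.02 with the covariate) with 6 of 39 higher and 1 lower at an unadjusted p under 0.05. Trappc3 was at 0.77 (SE 0.227) and Golga2 at 0.49 (SE 0.175), and the lower one, Sec24d, lies in the chromosome 3 stretch. The ER-to-Golgi median was 0.06 without wild-type replicate 3, 0.11 without Sod1G86R replicate 1 and 0.29 without wild-type replicate 7.

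**Figure D4:**
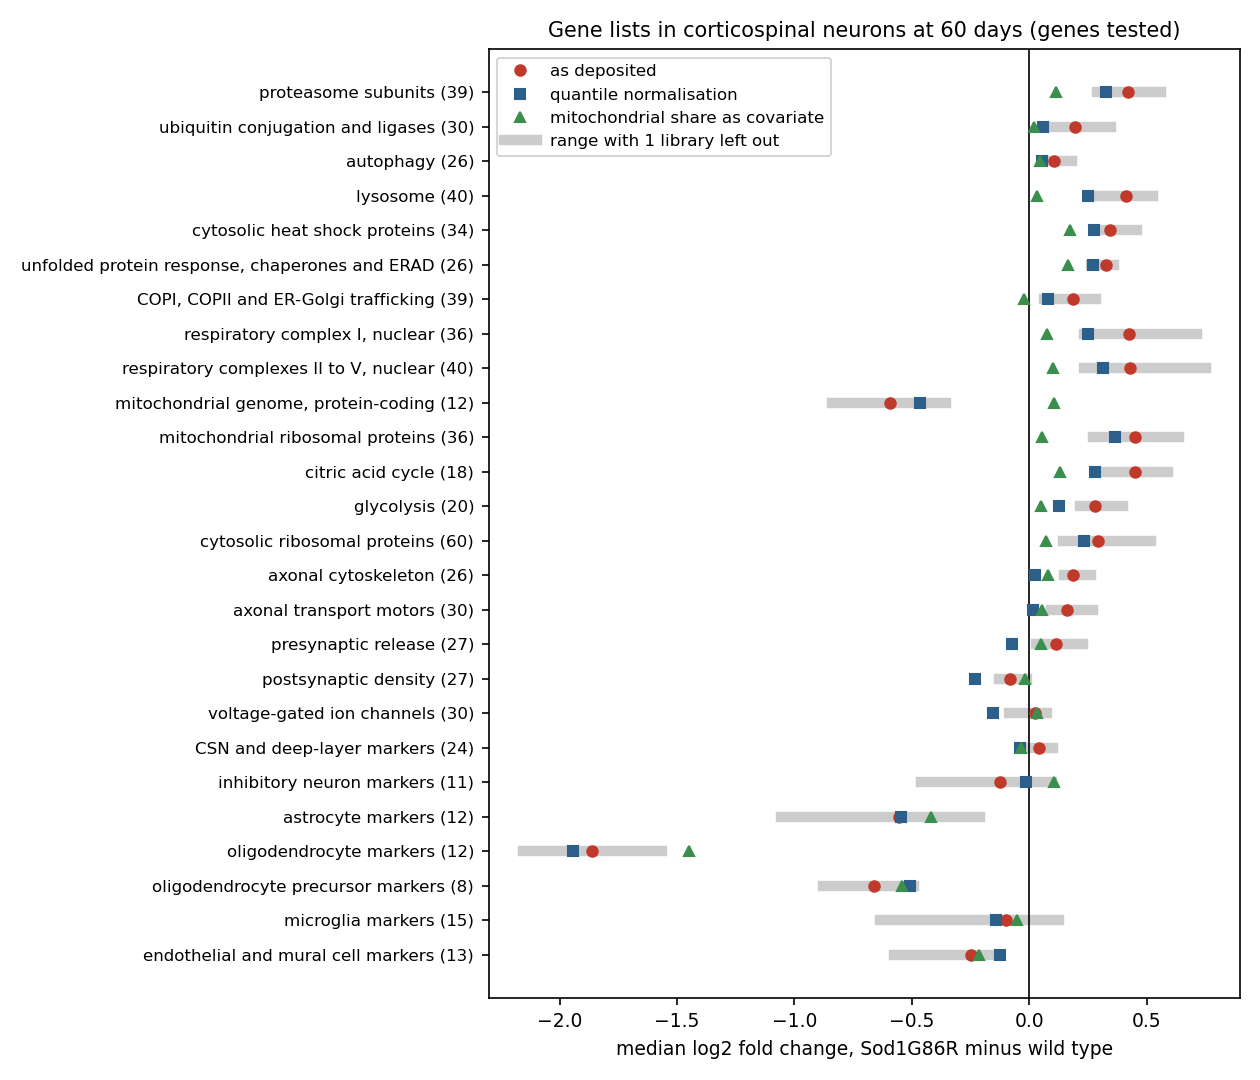
Median log2 fold change of Sod1G86R against wild-type CSN at 60 days (x axis) for 26 gene lists (y axis, number of genes tested in brackets), as deposited (circles), after quantile normalisation (squares) and adjusted for the mitochondrial share (triangles). Grey bars span the medians with 1 library left out; the circles of nuclear respiratory chain lists lie near 0.4 and move near 0.1 with the covariate, while that of oligodendrocyte markers stays below -1.

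Genes of the respiratory chain differed by genome. All 36 nuclear genes of complex I lay above 0 (median 0.42, 8 with an unadjusted p under 0.05, all higher), as did all 40 of complexes II to V (median 0.43, 14 with an unadjusted p under 0.05, all higher). Single libraries moved both medians. That of complex I was 0.23 without wild-type replicate 3, 0.24 without Sod1G86R replicate 1 and 0.71 without wild-type replicate 7. That of complexes II to V was 0.23, 0.26 and 0.75 without the same libraries. Atp5b, the catalytic subunit of ATP synthase, stood at 52863, 24199, 32199 and 49049 against 20358, 20326, 16997 and 34290 (log2 fold change 0.77, SE 0.246). Its groups overlapped, with wild-type replicate 7 above 2 Sod1G86R libraries. The complex I subunit Ndufv1 was at 0.79 (SE 0.263), and Atp5c1 of ATP synthase was at 0.83 (SE 0.296).

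Of 12 genes that the mitochondrial genome encodes, 1 lay above 0 (median -0.59, 4 with an unadjusted p under 0.05, all lower). The cytochrome oxidase gene mt-Co1 stood at 116630, 236960, 121040 and 247720 in Sod1G86R and at 276590, 327650, 360450 and 338700 in wild type. It was lower in every Sod1G86R library (log2 fold change -0.93, SE 0.275, adjusted p = 0.541). The cytochrome b gene mt-Cytb was at -0.84 (SE 0.291) with overlap. These genes make up much of the mitochondrial share itself, so the share is no separate measure of them. Their median was -0.36 without Sod1G86R replicate 1 and -0.35 without wild-type replicate 3. With the share as a covariate the medians of complex I, complexes II to V and the mitochondrial genome were 0.08, 0.10 and 0.10.

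Mitochondrial ribosomal proteins had 35 of 36 above 0 (median 0.45, and 0.06 with the covariate) and 12 with an unadjusted p under 0.05. Citric acid cycle genes had 16 of 18 above 0 (0.45 and 0.13), with 9, among them the dehydrogenase subunit Dld at 0.86 (SE 0.266). Glycolysis had 17 of 20 above 0 (0.28 and 0.05), with 5, among them Pgk1 at 1.06 (SE 0.323). Cytosolic ribosomal proteins had 57 of 60 above 0 (0.29 and 0.07), with 4, among them Rpl4 at 0.66 (SE 0.254). All of these unadjusted calls were higher and none passed. Without Sod1G86R replicate 1 or wild-type replicate 3, the median was 0.30 or 0.27 for mitochondrial and 0.15 or 0.14 for cytosolic ribosomal proteins, the latter also 0.52 without wild-type replicate 7. Antioxidant genes other than Sod1 had a median of 0.18 (-0.04 with the covariate), with 4 of 37 higher and 1 lower at an unadjusted p under 0.05. Prdx4, a peroxidase of the secretory pathway, was at 0.58 (SE 0.246), and the lower one was Gclm of chromosome 3. The antioxidant median ran from 0.05 without Sod1G86R replicate 1 to 0.46 without wild-type replicate 7.

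**Figure D5:**
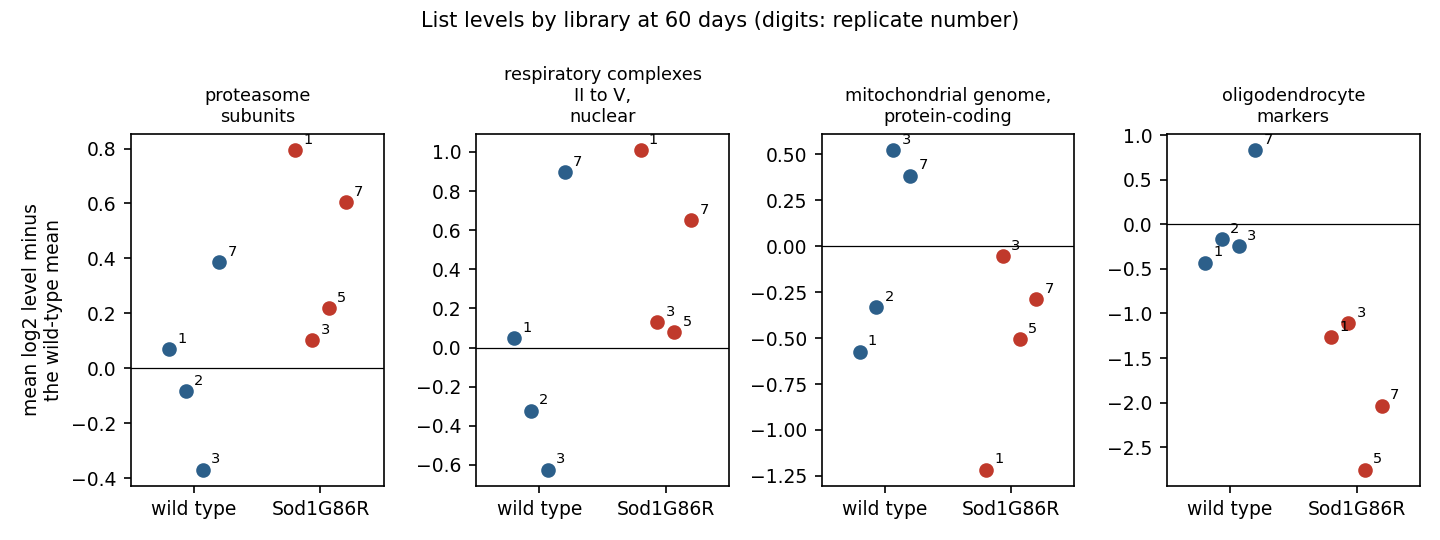
Mean log2 level of 4 gene lists in each of the 8 CSN libraries of 60 days, minus the wild-type mean (y axes, which differ between panels), with the replicate number beside each point. The genotypes overlap in the first 3 panels, and all 4 Sod1G86R libraries lie below all wild-type libraries for the oligodendrocyte markers.

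Lists of neuronal structure and signalling had smaller medians. The axonal cytoskeleton was at 0.19 (22 of 26 above 0, 3 with an unadjusted p under 0.05, all higher) and axonal transport motors at 0.16 (27 of 30 above 0, 1 with an unadjusted p under 0.05). Both came to 0.03 or less with quantile normalisation, and the motors ran from 0.09 without wild-type replicate 3 to 0.27 without wild-type replicate 7. Among their members, the tubulin-binding Stmn3 was at 0.71 (SE 0.249) and the dynein heavy chain Dync1h1 at 0.38 (SE 0.155), the latter without overlap. Presynaptic genes had a median of 0.12 and postsynaptic genes one of -0.08, which were -0.07 and -0.23 after quantile normalisation. The presynaptic median ran from 0.03 without wild-type replicate 3 to 0.23 without wild-type replicate 7. The calcium sensor of fast release Syt2 stood at 6451, 7506.5, 7754 and 6416 against 5349, 3885, 4919 and 3859, with no overlap (log2 fold change 0.65, SE 0.199, adjusted p = 0.541). The scaffold Shank3 was lower without overlap, at 715 ± 113 and 1085 ± 140 (-0.58, SE 0.208, adjusted p = 0.541).

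Ion channels had a median of 0.02 with values of both signs. Cacna1g, a low-threshold calcium channel, was at -0.81 (SE 0.236), with Sod1G86R replicate 3 within the wild-type range. Of calcium handling genes, the buffer Pvalb stood at 1954, 738, 876 and 1386 against 128, 143, 319 and 905. Only wild-type replicate 7 reached into the Sod1G86R range (log2 fold change 1.92, SE 0.552, adjusted p = 0.541). The calcium pump Atp2b4 was lower without overlap (-0.76, SE 0.249).

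In axon guidance, the repellent ligand Slit2 stood at 1748, 2200, 1783 and 2109 in Sod1G86R and at 3132, 3037, 2752 and 2480 in wild type, without overlap (log2 fold change -0.53, SE 0.164, adjusted p = 0.541). The guidance receptor Dcc was at -0.82 (SE 0.268) at levels of 12.1 and 49 on average. The list as a whole had a median of -0.07. Of injury genes (median 0.00), Tnfrsf12a, a receptor of the TNF family that is switched on by nerve damage, stood at 2744.5, 2217, 2523 and 1877 against 1196, 1040, 1203 and 1336, without overlap (log2 fold change 0.94, SE 0.285, adjusted p = 0.541). Of cell death genes (median 0.05), the initiator caspase gene Casp9 was at 0.84 (SE 0.285) with overlap and Ripk1 at -1.02 (SE 0.388). ALS-linked genes other than Sod1 had a median of 0.08, and -0.07 with quantile normalisation. The tubulin gene Tuba4a was at 0.65 (SE 0.301) and Anxa11 at 0.51 (SE 0.255), and 1 of 28 had an unadjusted p under 0.05.

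In RNA processing (median -0.05, and -0.21 with quantile normalisation), Ptbp2 and the splicing factor Srsf6 (-0.44, SE 0.158) were lower without overlap. Immediate early genes had a median of -0.05, with Btg2 at -0.94 (SE 0.446) and Nr4a2 at -0.50 (SE 0.242). In the interferon list (median -0.13) the ubiquitin-like Isg15 was at 15.6 ± 6.87 and 46.9 ± 13.9. The other 11 lists had medians from -0.28 to 0.38.

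Among markers of neurons, CSN and deep-layer markers had a median of 0.04, with 14 of 24 above 0, and -0.04 with quantile normalisation. At an unadjusted p under 0.05 there were 4 higher and 1 lower. The membrane protein gene Parm1 (0.59, SE 0.195) and the growth factor binding protein gene Igfbp4 (0.46, SE 0.187) were higher without overlap, Diaph3 is given above, and Sulf1 was lower at 11.8 ± 10.6 and 64.6 ± 22.5. Lamp5, a marker of upper layers, stood at 47650, 31557, 33738 and 43854 against 26248, 22615, 16296 and 29902, without overlap (log2 fold change 0.73, SE 0.249, adjusted p = 0.541). The upper-layer list had a median of -0.04. Inhibitory neuron markers had a median of -0.12 over 11 genes, with summed levels of 1230 to 4597 in Sod1G86R and 1153 to 4997 in wild type. Pvalb is 1 of them, and Reln, the other of smallest p, was at -0.94 (SE 0.331).

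Markers of oligodendrocytes had the lowest median of all 49 lists. All 12 lay below 0 with a median of -1.86, and in 6 the genotypes did not overlap, all lower, against 1.99% of all genes. Aspa, which breaks down N-acetylaspartate, stood at 517, 575, 189 and 333 against 1177, 1222, 1504 and 3896 (log2 fold change -2.10, SE 0.955), without overlap. Cnp was at -1.58 (SE 0.797) with overlap, and Ugt8a lies in the chromosome 3 stretch. At an unadjusted p under 0.05 there were 2 of 12 and none passed.

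The mean log2 level of the 12 oligodendrocyte markers lay -1.27, -1.11, -2.75 and -2.04 from the wild-type mean in Sod1G86R replicates 1, 3, 5 and 7, and -0.43, -0.16, -0.24 and 0.84 in wild-type replicates 1, 2, 3 and 7. Their summed level was 9919 to 70450 in Sod1G86R and 59600 to 144400 in wild type, so by that measure the groups overlapped. The median was -2.16 to -1.56 with 1 library left out, -1.45 with the mitochondrial covariate and -0.70 with the glial marker level, of which these genes are a part. In bulk libraries, fewer cells of a type and less RNA per cell cannot be told apart. At 30, 90 and 105 days the median of these markers was -1.57, 0.56 and -0.97, so the direction was not the same at every age. In control cells of 60 days it was -1.10.

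Other non-neuronal markers were also low in the medians. Oligodendrocyte precursor markers were at -0.66 (0 of 8 above 0), with Pdgfra at 39.8 ± 15 and 93.1 ± 21.9 and Olig1 at 334 ± 186 and 938 ± 553, both without overlap. Their summed levels were 322 to 628.1 and 828 to 2345. Endothelial and mural cell markers were at -0.25 (0 of 13 above 0), with Pdgfrb at -0.88 (SE 0.398) and Slco1a4 at -1.30 (SE 1.09) and summed levels of 1552 to 3134 and 1611 to 4157. Astrocyte markers were at -0.56 (2 of 12 above 0), with Sox9 at -0.99 (SE 0.491) and S100b at 0.30 (SE 0.2), and summed levels of 19630 to 78300 and 17800 to 108500. Microglia markers were at -0.10 (3 of 15 above 0), with Aif1 at -0.53 (SE 0.389) and Gpr34 at -1.10 (SE 0.926), and summed levels of 2819 to 18550 and 3649 to 18100. The astrocyte and microglia medians were 0.34 and 0.33 with the glial marker level as a covariate, but these markers are part of that level, so it is no separate measure of them. With 1 library left out the astrocyte median ran from -1.06 (without wild-type replicate 3) to -0.21 (without Sod1G86R replicate 3). The microglia median ran from -0.63 (without Sod1G86R replicate 7) to 0.13 (without Sod1G86R replicate 1), and it was 0.12 without wild-type replicate 7. That of endothelial and mural markers was -0.58 without Sod1G86R replicate 3 and -0.15 without Sod1G86R replicate 5. None of these markers passed, and the part of these cells in the other results was not tested beyond that covariate.

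Whether the genotype effect at 60 days differed from that at the other ages was tested with the mean effect of 30, 90 and 105 days subtracted. In limma 0 of 19093 genes passed, with 579 at an unadjusted p under 0.05 (3.03%). In edgeR 0 passed as well, with 630. On its own, each age passed 3 genes at 30 days (0.0157%), 928 at 90 days (4.86%) and 4 at 105 days (0.021%). Sod1G86R CSN libraries numbered 3, 4 and 2 at these ages, against 4 wild-type ones at each, so these counts cannot be compared as effects of age. By the test of the difference no gene was shown to be particular to 60 days.

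The smallest p-values of that difference give an idea of its size. Bmpr1a, a receptor of bone morphogenetic proteins, stood at 693, 510, 755 and 850 in Sod1G86R and at 1093, 1300, 739 and 1228 in wild type at 60 days. Its effects were 0.22, -0.60, 0.58 and 0.06 at 30, 60, 90 and 105 days (difference -0.89, SE 0.23, limma adjusted p = 0.99995). Teddm1b was at -0.58, 0.66, -0.98 and -0.31 (difference 1.28, SE 0.345) and the ciliary chaperonin-like gene Bbs10 at 0.77, -1.14, 0.39 and 0.28 (-1.62, SE 0.477). Fam57b (0.57), Nf2, the merlin tumour suppressor (0.61), and Cdc42se2 (-0.65) were the others of the 3 smallest in each direction. Slit2 was at -0.03, -0.53, 0.02 and -0.03 in the same order of ages (difference -0.52, SE 0.195, limma adjusted p = 0.99995) and Hspa5 at 0.25, 0.82, 0.53 and 0.50.

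The list medians at 30, 60, 90 and 105 days were 0.61, 0.42, 0.52 and 0.54 for the proteasome and 0.47, 0.42, 0.14 and 0.48 for complex I. For the mitochondrial genome they were -0.62, -0.59, -0.69 and -0.47, and for heat shock proteins 0.13, 0.35, 0.24 and 0.34. The 60-day value lay inside the range of the other ages for complex I and the mitochondrial genome, below it for the proteasome and just above it for heat shock proteins.

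The last comparison took the genotype effect at 60 days in CSN minus that in control cells. Here 1408 of 22032 genes passed (6.39%), 926 higher (4.2%) and 482 lower (2.19%), or 475 and 488 after quantile normalisation. In control cells the genotypes differed in 3779 genes on their own (17.2%), against 6 in CSN. Jun, an immediate early transcription factor, had the largest difference of the named genes (4.60, SE 0.998, limma adjusted p = 0.00759). It stood at 733, 840 and 746 in Sod1G86R control cells and at 48309 and 8484 in wild-type ones, against 859 ± 343 and 890 ± 311 in CSN. The cathepsin Ctsz was at 3.85 (SE 0.573, adjusted p = 0.000382), with 1395, 2500 and 1417 against 16915 and 14291 in control cells. The dipeptidase Cndp2 (4.01) and the zinc finger gene Zfp358 (3.94) were the other large positive differences. Zfp358 missed the threshold without wild-type CSN replicate 3 (limma adjusted p = 0.0519).

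In the negative direction were the muscle gene Ttn (-3.001), the odorant and pheromone receptors Olfr613 (-2.997) and Vmn1r58 (-2.95) and the steroid enzyme gene Hsd3b2 (-2.87). Each missed the threshold without Sod1G86R CSN replicate 1 and without wild-type CSN replicate 3 (limma adjusted p 0.0506 to 0.0728). Olfr613 and Hsd3b2 also missed it in edgeR (adjusted p = 0.0555 and 0.0668). Ttn stood at 1427, 790 and 1032 in Sod1G86R control cells and at 69.6 and 220 in wild-type ones, and at 395 ± 125 and 482 ± 166 in CSN. The control-cell genotypes also differed as libraries. The share of mitochondrial reads was 1.77 to 2.47% in Sod1G86R and 0.811 to 1.04% in wild type, the glial marker level was 11.8 to 12.7 and 13.9 to 14.0, and receptor genes took 0.0389 to 0.0924% and 0.00404 to 0.0132% of reads. None of these 3 measures overlapped. With the mitochondrial share as a covariate 0 genes passed the difference in limma (1739 at an unadjusted p under 0.05), and the count was 338 without Sod1G86R CSN replicate 1, 861 without its replicate 7, 429 without wild-type CSN replicate 3 and 849 without its replicate 2. The part of these library differences in the gene differences was not tested further.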

How the data were processed

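RNA of mouse brain cells had been amplified with SMART-Seq v4, made into libraries with Nextera XT, which does not mark strand, and mapped to GRCm38 with STAR 2.7.0 and Ensembl 87, per the labels and series text. The deposited table holds 45337 genes as normalised read counts, a signal per gene that the authors made by dividing whole reads by 1 factor per library; how those factors were derived is not stated in the labels, and the submitters' processing notes name edgeR. Dividing each library by its own step, the value of 1 read, gave back whole reads for 100% of values (tolerance 0.001), 22.2 to 64.2 M per library over the series.

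Values were analysed as log2(value + 34.6), which understates changes of low genes, for each gene that reached 34.6 in 3 or more libraries, with limma 3.58.1 (trended, robust) in R 4.3.3 and Benjamini-Hochberg adjustment over all genes tested. All 29 CSN libraries entered the fit with 1 term per genotype and age, and all 57 libraries in 16 groups for the contrast with control cells. Recovered reads were tested with edgeR 4.0.16 and DESeq2 1.42.0. Positions and the likeness of Sod1 to its pseudogene come from GENCODE M21 on GRCm38. Some genes and sequences are not reported here.

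The gene lists, the chromosome 3 stretch and the comparison itself were chosen with earlier results of these data known. Named genes were Sod1 and Creb3; passing genes of at least 346 with a proper symbol, or the 3 smallest p-values in a direction with fewer passes; the 4 largest of each contrast; the members of the stretch; and up to 4 genes of smallest p from each list described. Of 49 lists, 38 were described. On simulated counts of the 60-day comparison (18661 genes), 55% of 100 genes given a 2-fold change and 95% of 100 given a 4-fold change were recovered, with 6 false among 156 calls. The changed genes were drawn from those with a mean of at least 346. Each gene was drawn on its own, with no library-wide variation. Planting this many changes also loosens the adjusted threshold, so these shares may be too high for the real comparison. Alternatives were other pseudocounts, filters, scalings, weights, covariates, tools and leaving out each 60-day CSN library.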

Additional observations from a re-analysis of the deposited data

Results flagged for a closer look

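In 230 groups of 4 libraries tested, 12 held 1 library far from the other 3. Chance alone marks about 1 in 20 groups, so the count is near that of chance, and the cases below are descriptions only. Wild-type replicate 7 was such a library for Aspa (3896, the others 1177 to 1504), Aif1 (520.5, the others 175.6 to 208.8), Gpr34 (2051, the others 323.6 to 597.4), Rpl4 (7090, the others 2694 to 3242) and Jun (428.7, the others 1001 to 1111). It also had the greatest depth, 36.89 M reads against 25.97 to 27.43 M. Wild-type replicate 3 was low for Ctsz (1156, the others 1488 to 1511) and high for Shank3 (1293, the others 987.4 to 1038).

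Among Sod1G86R libraries, replicate 7 was low for Gm17494 (912.9, the others 1425 to 1507) and high for Gpr34 (1886, the others 71.01 to 243.5). Replicate 5 was low for Olig1 (56.55, the others 399.5 to 448.2), and replicate 3 was high for Cacna1g (1589, the others 695.5 to 772.1).

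In the test of the genotype effect in CSN minus that in control cells (limma), the difference passed for Jun (4.602), Cndp2 (4.011), Zfp358 (3.944), Ctsz (3.845) and Tram1l1 (2.611) in the positive direction. In the negative direction it passed for Ttn (-3.001), Olfr613 (-2.997), Vmn1r58 (-2.952), Hsd3b2 (-2.874) and Ndst3 (-1.684). Each of these negative differences missed the threshold without Sod1G86R CSN replicate 1 (limma adjusted p 0.0555 to 0.0728). Without wild-type CSN replicate 3, Ttn, Olfr613, Vmn1r58, Hsd3b2 and Zfp358 missed it (0.0506 to 0.0694). Olfr613 and Hsd3b2 also missed it in edgeR and with no filter. The differences are in log2, and 0 genes passed that test once the mitochondrial share was a covariate.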

How the results depend on the processing

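The 6 genes of the 60-day comparison became 2 when only the 8 libraries were fitted, 2 with a replicate block, 14 with DESeq2 and 3 to 6 with 1 library left out. Sod1 and Gm8566 passed under all 22 alternatives. The replicate block used the numbers that both genotypes share at each age, which are 1, 3 and 7 at 60 days. The residuals of these same-number pairs correlated at 0.0158, 0.493 and 0.300. Pairs of other numbers ranged from -0.523 to 0.480. These values cannot settle whether the numbers pair the libraries, and the main fit left them unpaired. With the block, Fnbp1l, Ndst3, Abcd3 and Gm26871 missed the threshold. The test against the other ages gave 0 genes under each alternative run. The 1408 genes of the contrast with control cells became 633 with no filter, 738 with edgeR, 0 with the mitochondrial share as a covariate and 338 to 1663 with 1 CSN library left out; a replicate block by the numbers that CSN and control cells share gave 1589. Of 25 such pairs 7 had a residual correlation over 0.1. Different cell types of 1 animal need not correlate, so this cannot show whether these numbers pair the libraries. The main contrast was fitted without pairing. Control-cell libraries were not left out in turn, so how far it rests on either of the 2 wild-type ones was not tested. No gene named in the text that passed turned direction under the alternatives run. List medians did: that of the mitochondrial genome was 0.10 and that of ER-to-Golgi genes -0.02 with the mitochondrial covariate, and that of presynaptic genes -0.07 with quantile normalisation. The causes of these changes were not tested. With 4 libraries a group, 2-fold changes of genes of at least 346 were often missed in simulated data (55% recovered).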
